A study of Mus musculus with 12 samples.

Results

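Toll-like receptors are membrane proteins with which innate immune cells sense microbial molecules and molecules released by damaged tissue. The mouse genes Tlr1, Tlr2, Tlr3, Tlr4, Tlr5, Tlr6, Tlr7, Tlr8, Tlr9 and Tlr13 were selected by symbol, by a rule that uses no measured value, although earlier results of these data were known when the family was chosen. They are 10 of the 49315 genes in the count table, and all 10 were among the 20290 genes with enough counts to be tested. Tlr1, Tlr2, Tlr4, Tlr5 and Tlr6 encode the 5 surface receptors, and Tlr3, Tlr7, Tlr8, Tlr9 and Tlr13 the 5 endosomal receptors.

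As background, each receptor has an outer domain of leucine-rich repeats that meets the ligand and an inner TIR domain that recruits adaptor proteins. The surface receptors meet lipoproteins, lipopolysaccharide and flagellin at the plasma membrane, and the endosomal receptors meet nucleic acids inside the cell, where the chaperone Unc93b1 carries them. The adaptors Myd88 and Ticam1 then lead to NF-kB and interferon responses. In the brain the receptors are best known from microglia and from macrophages and other leukocytes that enter after injury, while Tlr3 is also found in astrocytes.

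Total RNA from the brains of 12 male CD45.1 Pep Boy mice was sequenced at 14 d post-stroke. The study calls the tissue whole brains in one place and hemispheres in another, so how much uninjured tissue each library holds is not known. The recipients were irradiated with the head shielded at 8 to 12 weeks of age and received bone marrow (BM) cells from donors of 8 to 14 weeks, and stroke was induced later by occluding the right middle cerebral artery for 30 min. In the WT group (n = 6), 10% of the marrow was CD45.2 Tet2+/+ and 90% was CD45.1 Tet2+/+. In the Tet2-KO group (n = 6), 10% was CD45.2 Tet2-/- and 90% was CD45.1 Tet2+/+. All 12 mice thus had irradiation, competitor marrow with intact Tet2, host brain cells with intact Tet2 and a stroke, and no sham mice were analysed here. The transplant models clonal hematopoiesis, the growth of a blood cell clone that carries a driver mutation. The treatment entry of all 12 sample labels names control stem cells, so the groups were taken from the titles, with which the genotype entries match.

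The libraries held 12000261 to 15340787 counts each in WT mice and 12625047 to 21049763 in Tet2-KO mice. Tet2 itself had a log2 fold change between the groups of -0.01 with a standard error (SE) of 0.05 (edgeR adjusted p = 0.934), which is no check of the labels because most cells of every brain carried intact Tet2. Marker genes of neurons, astrocytes and oligodendrocytes summed to between 2409 and 6347 CPM (counts scaled to the size of the library) in each mouse, as a brain label requires. A pair of libraries stood apart within their groups. WT replicate 2 had the highest CPM of its group for all 10 receptors, and Tet2-KO replicate 5 had the highest CPM of its group for all 10 and lay near the WT mice. Results are therefore also given without them.

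Transcripts of all 10 receptors had lower mean levels in the Tet2-KO group. The log2 fold changes of Tet2-KO over WT ranged from -1.67 for Tlr8 to -0.38 for Tlr3, with a median of -0.89, whereas the median over all tested genes was 0.01 and 47.7% of tested genes lay below 0. With edgeR's quasi-likelihood test on all 12 mice, none of the 10 passed an adjusted p of 0.05, as did 0.0246% of all tested genes in this direction. At an unadjusted edgeR p below 0.05, 7 of the 10 were lower, against 12.2% of tested genes. These were the 5 surface receptors together with Tlr3 and Tlr8. The DESeq2 Wald test called 3 of the 10 lower (Tlr5, Tlr6 and Tlr3; 4.81% of its tested genes were called lower), and limma-voom with quality weights called 7 (6.38%). Without Tet2-KO replicate 5, edgeR called the same 7 genes lower (7.30% of tested genes), and without both WT replicate 2 and Tet2-KO replicate 5 it called 5, namely Tlr1, Tlr4, Tlr6, Tlr3 and Tlr8 (4.94%). In no receptor did every Tet2-KO mouse lie below every WT mouse, a pattern seen in 0.641% of tested genes, and Tet2-KO replicate 5 lay within the WT range each time. In 6 of the receptors (Tlr1, Tlr5, Tlr6, Tlr3, Tlr8 and Tlr9), the other 5 Tet2-KO mice all lay below the lowest WT mouse. For Tlr5 the margin was narrow, 1.31 against 1.32 CPM. Replicate 5 was set aside after its values were seen. The share of all tested genes with this looser pattern was not counted, and the 0.641% does not apply to it.

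**Figure D1:**
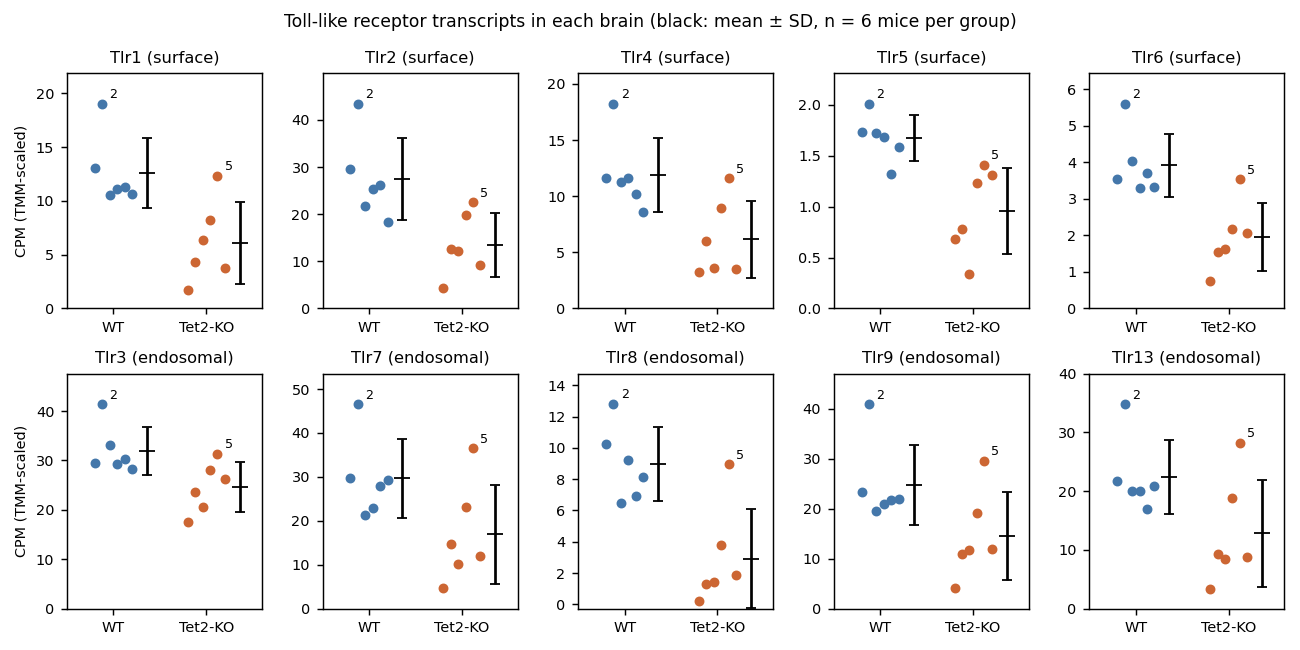
Level of each receptor (CPM after TMM scaling, linear axes) in each brain of the WT and Tet2-KO groups; points are mice in order of replicate number, and black marks give the mean ± SD (n = 6). WT replicate 2 and Tet2-KO replicate 5 are numbered and are the highest of their group in all 10 panels.

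Among the surface receptors, Tlr2 pairs with Tlr1 to sense triacylated lipopeptides and with Tlr6 to sense diacylated ones. The gene of Tlr2 lies at chr3:83836272-83841767 on the minus strand (GRCm38, as all positions given here), and reads in its exons were counted. Tlr2 lay between 18.4 and 43.4 CPM in the WT mice (median 25.7) and between 4.28 and 22.6 CPM in the Tet2-KO mice (median 12.3). The groups overlapped, since Tet2-KO replicates 4 and 5 reached 19.8 and 22.6 CPM, and the other 4 lay under the whole WT range. The means were 27.4 ± 8.71 and 13.4 ± 6.74 CPM (SD, n = 6 each), a log2 fold change of -1.03 (SE 0.35; edgeR adjusted p = 0.142). Without Tet2-KO replicate 5 the log2 fold change was -1.23 (edgeR adjusted p = 0.0479). Without both WT replicate 2 and Tet2-KO replicate 5 it was -1.04 (edgeR adjusted p = 0.0982).

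Its partner Tlr1 ranged from 10.6 to 19.0 CPM in the WT mice (median 11.2) and from 1.67 to 12.3 CPM in the Tet2-KO mice (median 5.30). A single Tet2-KO mouse, replicate 5, overlapped the WT mice, and the next highest was at 8.23 CPM. The log2 fold change of Tlr1 was -1.06 (SE 0.37; edgeR adjusted p = 0.146; limma-voom 0.0257). The other partner, Tlr6, was less abundant, at 3.31 to 5.59 CPM in the WT mice (median 3.62) and 0.744 to 3.53 CPM in the Tet2-KO mice (median 1.85). Again only Tet2-KO replicate 5 reached the WT range, with the other 5 mice at or below 2.16 CPM. Tlr6 had a log2 fold change of -1.03 (SE 0.26) and the smallest p of the 10, with an edgeR adjusted p of 0.110 and a DESeq2 adjusted p of 0.00648. Tlr1 (chr5:64924679-64933563 on GRCm38) and Tlr6 (chr5:64952031-64960097) lie 18.5 kb apart on the minus strand. Stretches of 100 exon bases were taken from every start base, so they overlap each other. The 2 genes share 259 of them, 7.89% of those of Tlr1 and 7.09% of those of Tlr6. Because only uniquely mapped reads were counted, reads from the shared exon sequence may have been lost and both levels are uncertain to that extent.

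Tlr4 (chr4:66827584-66930284, plus strand) is the lipopolysaccharide receptor and also responds to several molecules released by damaged tissue. It lay between 8.57 and 18.2 CPM in the WT mice (median 11.4) and between 3.22 and 11.6 CPM in the Tet2-KO mice (median 4.83). Here 4 Tet2-KO mice lay under the whole WT range, and replicates 4 and 5 were within the WT range. The log2 fold change was -0.95 (SE 0.32; edgeR adjusted p = 0.138), and -1.21 without Tet2-KO replicate 5 (edgeR adjusted p = 0.0239). Without both WT replicate 2 and Tet2-KO replicate 5 it was -1.04 (edgeR adjusted p = 0.0372). Tlr5, the flagellin receptor (chr1:182954788-182976044, plus strand), was the least abundant of the 10, with 16 to 28 reads in each WT mouse and 5 to 24 in each Tet2-KO mouse, so that counting error is a large part of its spread. Its level was 1.32 to 2.01 CPM in the WT mice (median 1.70) and 0.336 to 1.41 CPM in the Tet2-KO mice (median 1.01). It was the one receptor whose lowest Tet2-KO mouse was replicate 3, not replicate 1. The log2 fold change of Tlr5 was -0.82 (SE 0.26; edgeR adjusted p = 0.123; DESeq2 0.0284).

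Of the endosomal receptors, Tlr8 had the lowest mean fold change of the whole family. Tlr8 lies on the X chromosome (X:167242696-167264329, minus strand), 40.6 kb from Tlr7, and belongs with it to the group that senses single-stranded RNA and its breakdown products. It had 84 to 179 reads in the WT mice, equal to 6.46 to 12.8 CPM (median 8.69). In the Tet2-KO mice it had 3 to 114 reads, equal to 0.186 to 8.94 CPM (median 1.63). Tet2-KO replicate 5 sat in the middle of the WT mice, while the other 5 Tet2-KO mice were at or below 3.81 CPM. The means were 8.97 ± 2.35 and 2.92 ± 3.18 CPM (SD, n = 6 each), a log2 fold change of -1.67 with a 95% interval from -2.90 to -0.43 (edgeR adjusted p = 0.138). Without Tet2-KO replicate 5 the log2 fold change of Tlr8 was -2.36 (edgeR adjusted p = 0.0130), a difference larger by over 1.5 times on the linear scale. Without both WT replicate 2 and Tet2-KO replicate 5 the log2 fold change was -2.23 (edgeR adjusted p = 0.0216).

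Tlr7 (X:167304929-167330558, minus strand), Tlr9 (chr9:106222598-106226883, plus strand) and Tlr13 (X:106143204-106160493, plus strand) had similar values. Tlr7, a sensor of single-stranded RNA, lay between 21.3 and 46.5 CPM in the WT mice (median 28.6) and between 4.83 and 36.6 CPM in the Tet2-KO mice (median 13.4). Tlr9, the sensor of unmethylated CpG DNA, lay between 19.5 and 41.0 CPM (median 22.0) and between 4.15 and 29.7 CPM (median 11.9), respectively. Tlr13, which mice but not humans have and which senses bacterial ribosomal RNA, lay between 17.0 and 34.8 CPM (median 20.5) and between 3.28 and 28.2 CPM (median 9.09). In all 3 genes Tet2-KO replicate 5 exceeded every WT mouse but replicate 2, and Tet2-KO replicate 4 was the next highest of its group. Their log2 fold changes were -0.81 (SE 0.41), -0.77 (SE 0.38) and -0.81 (SE 0.42), and all 3 of the 95% intervals included 0. The edgeR adjusted p-values were 0.260 for Tlr7, 0.253 for Tlr9 and 0.274 for Tlr13, and without Tet2-KO replicate 5 they were 0.0576, 0.0613 and 0.0599. Without both WT replicate 2 and Tet2-KO replicate 5 they were 0.121, 0.120 and 0.128. These 3 genes were called by none of edgeR, DESeq2 and limma-voom.

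Tlr3, the sensor of double-stranded RNA, which signals through Ticam1 in place of Myd88, had the smallest fold change and the smallest SE of it. It lay between 28.3 and 41.4 CPM in the WT mice (median 29.9) and between 17.5 and 31.4 CPM in the Tet2-KO mice (median 24.9). All Tet2-KO mice but replicate 5 were below the lowest WT mouse, the highest of them at 28.0 CPM. The means were 32.0 ± 4.87 and 24.5 ± 5.07 CPM (SD, n = 6 each), a log2 fold change of -0.38 (SE 0.13; edgeR adjusted p = 0.138; DESeq2 0.0471). An antisense gene, Gm45542, overlaps 381 of the exon bases of Tlr3 (chr8:45395665-45411080, minus strand), and the strand setting of the counting is not given in the sources used here, so reads there cannot be told apart.

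Each receptor was also tested alone by permuting the 12 mice between the groups. The exact two-sided permutation p-values of log2 CPM, unadjusted, lay between 0.00433 for Tlr5 and 0.0390 for Tlr7, where the smallest that 924 assignments allow is 0.00216. These tests use the same 12 mice as edgeR, and the share of all tested genes below 0.05 is not given. For Tlr7, Tlr9 and Tlr13 the unadjusted edgeR p was higher, at 0.0731, 0.0691 and 0.0807.

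**Figure D2:**
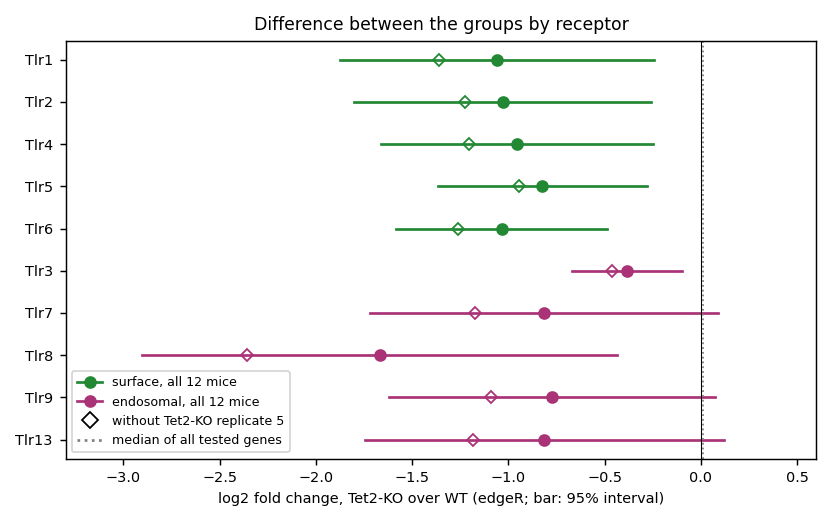
Log2 fold change of Tet2-KO over WT for each receptor with its 95% interval from edgeR (filled points, all 12 mice) and without Tet2-KO replicate 5 (open diamonds); the dotted line is the median over all tested genes, 0.01. All 10 points lie below 0, the intervals of Tlr7, Tlr9 and Tlr13 cross it, and all 10 diamonds lie further from 0 than the filled points. The diamonds had to shift this way, because the mouse left out is the highest Tet2-KO mouse for all 10 receptors.

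Levels of different receptors were compared as CPM per kb of exon. In the WT mice the means ran from Tlr2 (9.09), Tlr7 (7.26), Tlr9 (7.13), Tlr3 (6.15) and Tlr13 (5.21) to Tlr1 (3.77), Tlr8 (2.50), Tlr4 (2.15), Tlr6 (1.05) and Tlr5 (0.350). Neighbours in this order overlapped in their ranges over the 6 mice down to Tlr4. Within a mouse Tlr7 exceeded Tlr9 in 3 of 6 WT mice, so these do not differ in order, whereas Tlr13 exceeded Tlr1, and Tlr1 exceeded Tlr8, in all 6. The ranges of Tlr4, Tlr6 and Tlr5 did not overlap. In the Tet2-KO mice Tlr3 came first (4.71 CPM per kb), followed by Tlr2 (4.46), Tlr9 (4.20), Tlr7 (4.15), Tlr13 (2.98), Tlr1 (1.82), Tlr4 (1.11), Tlr8 (0.814), Tlr6 (0.522) and Tlr5 (0.200). Tlr8 exceeded Tlr4 per kb in 5 of 6 WT mice and in 1 of 6 Tet2-KO mice, and Tlr9 exceeded Tlr3 in 5 and 2 of 6. These orders depend on the length used, and with the longest transcript in place of all exon bases Tlr4 ranked above Tlr8 and Tlr3 above Tlr9 in the WT mice as well.

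The surface receptors were then set against the endosomal ones. Summed per kb, the 5 surface receptors reached 16.4 ± 4.65 CPM per kb in the WT mice (SD, n = 6; range 12.1 to 25.3) and 8.11 ± 4.19 in the Tet2-KO mice (range 2.84 to 14.5). The 5 endosomal receptors reached 28.3 ± 7.25 CPM per kb in the WT mice (range 23.7 to 42.8) and 16.9 ± 9.14 in the Tet2-KO mice (range 6.55 to 32.6). In both sums 5 of 6 Tet2-KO mice lay under the WT range, the exception being replicate 5. Tlr2 alone made up 49.9% to 58.7% of the surface sum over the 12 mice, and Tlr7 made up 18.1% to 27.6% of the endosomal sum. The median log2 fold change was -1.03 for the surface receptors and -0.81 for the endosomal receptors, and -1.23 and -1.17 without Tet2-KO replicate 5. Without both WT replicate 2 and Tet2-KO replicate 5 these medians were -1.04 and -0.996. The endosomal receptors held both the largest and the smallest difference of the family, so their range (-1.67 to -0.38) enclosed that of the surface receptors (-1.06 to -0.82). Within a mouse the ratio of the surface to the endosomal sum was 0.580 ± 0.0593 in the WT group (SD, n = 6; range 0.462 to 0.620) and 0.483 ± 0.0656 in the Tet2-KO group (range 0.405 to 0.578). The ratios overlapped, with 3 Tet2-KO mice below every WT mouse. This overlap rests on WT replicate 6 (0.462), since the other 5 WT mice lay between 0.584 and 0.620, above all 6 Tet2-KO mice. A difference between the classes was not tested.

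**Figure D3:**
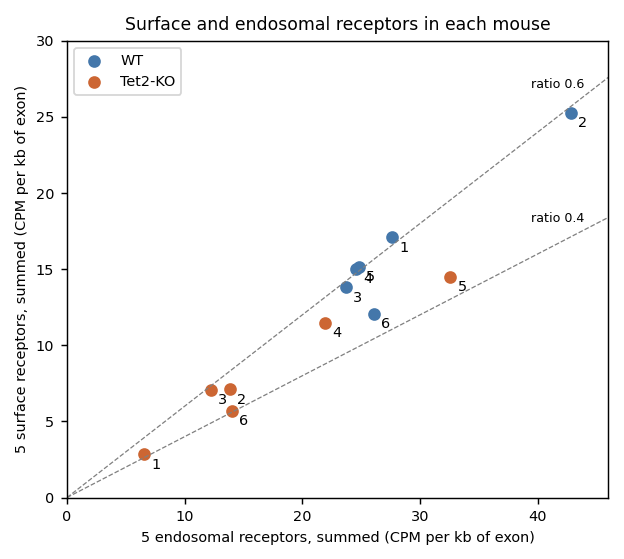
Summed surface receptors against summed endosomal receptors (both CPM per kb of exon) in each mouse, numbered by replicate; dashed lines mark ratios of 0.4 and 0.6. The 12 mice lie along a narrow band from Tet2-KO replicate 1 (2.84 and 6.55) to WT replicate 2 (25.3 and 42.8).

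The receptors varied together from mouse to mouse. After the group means were removed, Pearson's r between log2 CPM values over the 12 mice was above 0 in all 45 pairs of receptors, with a median of 0.888, from 0.350 for Tlr1 and Tlr5 to 0.981 for Tlr9 and Tlr13. The points of each pair share libraries and tissue, so these are descriptions. WT replicate 2 and Tet2-KO replicate 5 were the highest of their groups for every receptor, which by itself raises r in each pair. A median of r over pairs of other genes is not given for comparison. These values therefore cannot show that the receptors varied together more than other genes did. Over 19100 genes of at least 1 CPM, the genes most like Tlr1 were Pik3ap1 (r = 0.995), Fyb (0.994) and C3ar1 (0.994), and those most like Tlr2 were Dennd1c (0.991), Myo1f (0.987) and Irf5 (0.986). The closest to Tlr4 were Fcgr3 (0.979), Litaf (0.975) and Svep1 (0.972), and to Tlr6 they were Anapc1 (0.976), Hpgd (0.970) and Hacd4 (0.966). Tlr5, with its low counts, was most like Vezf1 (0.943), Socs4 (0.938) and Rnf152 (0.921). Some of these, such as the complement receptor gene C3ar1 and the Fc receptor gene Fcgr3, are expressed by myeloid cells, but the genes are mixed. Anapc1, the closest to Tlr6, had a log2 fold change between the groups of -0.01. Those closest to Tlr5, Vezf1, Socs4 and Rnf152, were at -0.10, -0.06 and 0.03.

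For the endosomal Tlr9 the closest genes were Lsp1 (r = 0.993), Mpeg1 (0.992) and Cd53 (0.990), all known from leukocytes. Tlr13 was most like Casp12 (0.994), Lgals9 (0.992) and H2-T23 (0.991), and Tlr7 most like Slfn9 (0.989), Sp140 (0.988) and Epha2 (0.984). The closest to Tlr8 were Trim30d (0.986), Ifi213 (0.984) and Phf11b (0.984). Tlr3 stood with Dram2 (0.976), Hif1a (0.972) and Picalm (0.971), genes that many cell types use. By ranks, some of these pairs were less alike. Spearman's rho was 0.748 for Tlr9 and Cd53 and 0.818 for Tlr8 and Trim30d, against 0.993 for Tlr1 and C3ar1.

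Because the receptors varied together, the bases around their transcription start sites were searched for letters that factors of myeloid and inflammatory genes are known to bind. The windows run from 250 bases before the start to 50 after it (RefSeq, GRCm38.p6), and 10 windows were found for 8 of the genes, with 2 each for Tlr1 and Tlr6; Tlr4 and Tlr7 had no entry. Both strands were searched for GAGGAAGT (PU.1, the master factor of myeloid cells), GGGANTTTC (NF-kB), AAANNGAAA (interferon response elements) and TGANTCA (AP-1). Among all 32851 windows of this length these letters occur in 3.20%, 1.11%, 10.6% and 7.81%. Shown are Tlr8 and Tlr3, the receptors with the largest and the smallest difference, and Tlr1 and Tlr9, whose windows hold the PU.1 letters; capitals mark every match, and sequences run 5′ to 3′ on the strand of the gene.
Tlr8: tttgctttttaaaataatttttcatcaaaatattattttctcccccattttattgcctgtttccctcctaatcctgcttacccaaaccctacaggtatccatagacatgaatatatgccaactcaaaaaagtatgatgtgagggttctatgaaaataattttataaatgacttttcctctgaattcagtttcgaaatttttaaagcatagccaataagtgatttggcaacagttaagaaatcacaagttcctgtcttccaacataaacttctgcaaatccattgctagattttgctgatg
Tlr3: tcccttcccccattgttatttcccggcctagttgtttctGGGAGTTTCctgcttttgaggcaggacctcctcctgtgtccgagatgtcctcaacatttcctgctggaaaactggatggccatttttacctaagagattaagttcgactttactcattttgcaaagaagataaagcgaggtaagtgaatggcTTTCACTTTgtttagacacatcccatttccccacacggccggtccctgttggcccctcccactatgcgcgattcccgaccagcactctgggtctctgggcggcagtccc
Tlr1: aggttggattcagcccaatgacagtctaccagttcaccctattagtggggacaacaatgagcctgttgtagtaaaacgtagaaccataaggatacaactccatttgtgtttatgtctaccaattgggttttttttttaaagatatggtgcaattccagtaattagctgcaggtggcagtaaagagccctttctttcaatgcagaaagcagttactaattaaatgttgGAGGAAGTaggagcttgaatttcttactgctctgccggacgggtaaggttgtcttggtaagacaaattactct
Tlr9: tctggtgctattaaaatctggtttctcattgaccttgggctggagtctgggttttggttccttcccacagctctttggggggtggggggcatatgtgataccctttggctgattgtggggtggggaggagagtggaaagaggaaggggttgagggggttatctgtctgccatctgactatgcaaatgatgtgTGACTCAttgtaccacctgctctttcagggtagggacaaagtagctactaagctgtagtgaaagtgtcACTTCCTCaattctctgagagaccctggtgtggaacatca

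The window of Tlr1 (chr5:64933509-64933808) holds the PU.1 letters at position -23, counting the start base as 1 with no position 0, and that of Tlr9 (chr9:106222348-106222647) holds them on the opposite strand at position 11, with AP-1 letters at position -58. The window of Tlr3 (chr8:45410331-45410630) holds NF-kB letters at position -211 and interferon response letters on the opposite strand at position -59. No match lies in the window of Tlr8 (X:167264280-167264579). Of the other windows, that of Tlr2 has interferon response letters at position -191 and 1 window of Tlr6 has 3 overlapping copies from position -116, while those of Tlr5 and Tlr13 and the second window of Tlr6 and of Tlr1 have no match. These letters describe the windows and not the binding of a factor.

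The genes around the receptors were read from fixed lists. Over all tested genes, 12.2% were lower and 10.8% higher at an unadjusted edgeR p below 0.05, and 47.7% lay below 0. DESeq2 called 4.81% of its tested genes lower and limma-voom 6.38%. The co-receptors and proteins that deliver ligands had a median log2 fold change of -0.95, with all 7 below 0 and 6 of 7 lower at an unadjusted edgeR p below 0.05. Cd14, which hands lipopolysaccharide to Tlr4, was at -0.95 on the log2 scale (edgeR adjusted p = 0.182; limma-voom 0.0452), and Ly96, the subunit that binds it, at -0.89 (edgeR 0.124; DESeq2 0.0357). Lbp, the carrier of lipopolysaccharide in blood, was at -1.19 (edgeR adjusted p = 0.155) and Nrros, a negative regulator of receptor levels, averaged 31.1 CPM in the WT mice and 15.6 in the Tet2-KO mice (edgeR adjusted p = 0.124). Cd36, a scavenger receptor that works with Tlr2 and Tlr6, had means of 8.54 and 2.61 CPM in the WT and Tet2-KO mice. All 6 Tet2-KO mice lay below every WT mouse for Cd36, replicate 5 included, with a log2 fold change of -1.73 (SE 0.28). The adjusted p of Cd36 was 0.0752 with edgeR, 2.75e-07 with DESeq2 and 0.0116 with limma-voom. Of this list, DESeq2 called Ly96, Nrros and Cd36 lower, and limma-voom called these together with Cd14 and Lbp.

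Of the genes that fold, carry and cut the receptors, all 10 were below 0 (median log2 fold change -0.45), against 47.7% of tested genes. At an unadjusted edgeR p below 0.05, 6 were lower, against 12.2% of tested genes. At an adjusted p below 0.05, limma-voom called Unc93b1, Lgmn, Ctsb and Ctsl lower (6.38% of tested genes), and DESeq2 called 0 of the 10 (4.81%). Unc93b1, the chaperone of the endosomal receptors, averaged 108 CPM in the WT mice and 55.9 in the Tet2-KO mice, a log2 fold change of -0.95 (SE 0.35; edgeR adjusted p = 0.155). The lysosomal proteases that cut these receptors into their active form were alike, with Lgmn at -0.69, Ctsb at -0.80 and Ctsl at -0.82 on the log2 scale (edgeR adjusted p between 0.133 and 0.146). Hsp90b1, Cnpy3 and Lrrc59 had smaller differences. The folding chaperone gene Hsp90b1 was at -0.17 (edgeR adjusted p = 0.187) and is one of the 6, while its partner Cnpy3 was at -0.03 and Lrrc59 at -0.05, neither of them below an unadjusted edgeR p of 0.05.

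Signalling components were divided as well. Of the 5 adaptor genes, 3 were lower at an unadjusted edgeR p below 0.05 (12.2% of tested genes) and 1 was higher (10.8%). Myd88, the adaptor of nearly all the receptors, was at a log2 fold change of -0.81 (SE 0.19; edgeR adjusted p = 0.110; DESeq2 0.00403). The bridging adaptors of the surface receptors, Tirap and Ticam2, were at -0.62 and -0.99 (edgeR adjusted p = 0.110 and 0.124), and for Tirap all 6 Tet2-KO mice lay below every WT mouse. DESeq2 and limma-voom each called Myd88, Tirap and Ticam2 lower (4.81% and 6.38% of their tested genes). Ticam1, the adaptor of Tlr3, was at -0.15 (edgeR adjusted p = 0.378), and Sarm1, known mainly from neurons, at 0.18 (edgeR adjusted p = 0.192). Among 12 kinases and ubiquitin ligases the median was -0.08, with 4 lower at an unadjusted edgeR p below 0.05 (12.2% of tested genes). Irak4, the first kinase of the Myd88 complex, was at -0.65 (edgeR adjusted p = 0.121) and Ikbke at -1.05 (edgeR adjusted p = 0.137), while Traf6 was at -0.06 (edgeR adjusted p = 0.579). Of this list, DESeq2 called only Irak4 lower, and limma-voom called Irak4 and Ikbke.

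The 8 negative regulators had a median log2 fold change of -0.39. At an unadjusted edgeR p below 0.05, 4 were lower (12.2% of tested genes) and 1 was higher (10.8%). Tnfaip3, which removes ubiquitin from the signalling complex, was at -0.58 (edgeR adjusted p = 0.126) and Atf3, a repressor of inflammatory genes, at -1.44 (edgeR adjusted p = 0.130), with all 6 Tet2-KO mice below every WT mouse for Atf3. DESeq2 and limma-voom each called Tnfaip3 and Atf3 lower and no other negative regulator. Of 8 target genes, Il6 and Il12b had too few reads to be tested, and the other 6 had a median of -0.76 with 4 lower at an unadjusted edgeR p below 0.05. Tnf was at -1.12 (edgeR adjusted p = 0.124), Cxcl10 at -1.26 (edgeR adjusted p = 0.131) and Acod1, which makes itaconate, at -2.90 (edgeR adjusted p = 0.104), and Acod1 lay lower in every Tet2-KO mouse than in any WT mouse. DESeq2 called all of Tnf, Cxcl10 and Acod1 lower (adjusted p = 0.0287, 0.0497 and 0.00185). Limma-voom called them as well (adjusted p = 0.0288, 0.0207 and 0.0182). Tlr12, a further family member, was at -0.65 (edgeR adjusted p = 0.139), and Tlr11, with 42 reads over the 6 WT mice and 26 over the 6 Tet2-KO mice, was not tested.

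Endogenous ligands held the pathway genes that edgeR called on all 12 mice. S100a8 and S100a9, the subunits of calprotectin that Tlr4 can sense, fell by 2.16 and 2.84 on the log2 scale (edgeR adjusted p = 0.0364 for both), with all 6 Tet2-KO mice below every WT mouse. Both are abundant in neutrophils and monocytes. The other 5 ligand genes did not pass with edgeR, among them Bgn at -1.05 (edgeR adjusted p = 0.160; limma-voom 0.0314) and Hmgb1 at -0.05. The number of pathway genes called was 0 without any 1 of WT replicates 1, 3 and 4 and Tet2-KO replicates 1, 2, 3, 4 and 6, was 1 without WT replicate 5, and was 26 without Tet2-KO replicate 5. In that last fit 7.30% of all tested genes were called lower.

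Markers of several cell types moved with the receptors. For the counts that follow, 12.2% of all tested genes were lower and 10.8% higher at an unadjusted edgeR p below 0.05. In bulk tissue, fewer cells of a type and less RNA per cell cannot be told apart. All 6 markers of infiltrating monocytes were lower at an unadjusted edgeR p below 0.05 (median log2 fold change -1.78), and their sum lay between 349 and 934 CPM in the WT mice and between 24.6 and 462 CPM in the Tet2-KO mice. Tet2-KO replicate 5 gave the 462 CPM, and the next highest Tet2-KO mouse had 198 CPM. Most of the monocyte marker sum was Lyz2, with means of 496 CPM in the WT and 145 CPM in the Tet2-KO mice. Markers shared by microglia and macrophages were lower at that p in 5 of 6 genes (median -0.80), with sums of 469 to 860 CPM and 146 to 567 CPM, and replicate 5 was again the highest Tet2-KO mouse. Homeostatic microglia markers were lower at that p in 1 of 8 genes, near the 12.2% of all tested genes. Their median was -0.21, with overlapping sums of 644 to 1162 CPM and 319 to 841 CPM. For border macrophages 3 of 5 markers were lower at that p (median -0.81; sums of 30.5 to 55.3 and 13.8 to 40.5 CPM), whereas Cd163 and Lyve1 had log2 fold changes above 0, of 0.04 (edgeR adjusted p = 0.896) and 0.22 (0.668). For dendritic cells 3 of 5 markers were lower (median -0.79; 57.5 to 86.6 and 38.7 to 70.6 CPM).

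Lymphocyte and neutrophil markers were sparse. The shares of all tested genes at an unadjusted edgeR p below 0.05 were again 12.2% lower and 10.8% higher. The neutrophil markers summed to 6.35 to 18.6 CPM in the WT mice and 1.69 to 4.16 CPM in the Tet2-KO mice, with 3 of 7 testable and all 3 lower at an unadjusted edgeR p below 0.05, and the defining marker Ly6g was at 0 in 4 WT and all 6 Tet2-KO mice. The 3 testable markers are S100a8 and S100a9, already given among the ligands, and Cxcr2 (log2 fold change -2.56; edgeR adjusted p = 0.110; DESeq2 0.0105; limma-voom 0.0186), and the difference in the sum lies mainly in them. The granule and neutrophil genes Retnlg, Ngp and Camp were not testable, with 46, 61 and 17 reads over the WT mice and 47, 58 and 15 over the Tet2-KO mice. B cell markers summed to 1.98 to 5.67 and 0.462 to 2.04 CPM (1 of 4 testable, and lower at that p), and T cell markers to 8.20 to 13.2 and 4.81 to 8.69 CPM (3 of 5 testable, all lower at that p). Neuronal markers were higher at that p in 5 of 5 genes (median 0.28; sums of 2409 to 3640 CPM in the WT and 3190 to 4452 CPM in the Tet2-KO mice), and WT replicate 2 had the lowest neuronal sum of the 12 mice. Of the 4 astrocyte markers 1 was higher at that p (median -0.19; sums of 5281 to 6206 and 5136 to 6347 CPM), of the 4 oligodendrocyte markers none passed at that p (median 0.03; 4361 to 5690 and 4036 to 5641 CPM), and of the 4 endothelial markers 2 were lower (median -0.27; 160 to 200 and 145 to 176 CPM). The part of these cell type markers in the values of the receptors was not tested.

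**Figure D4:**
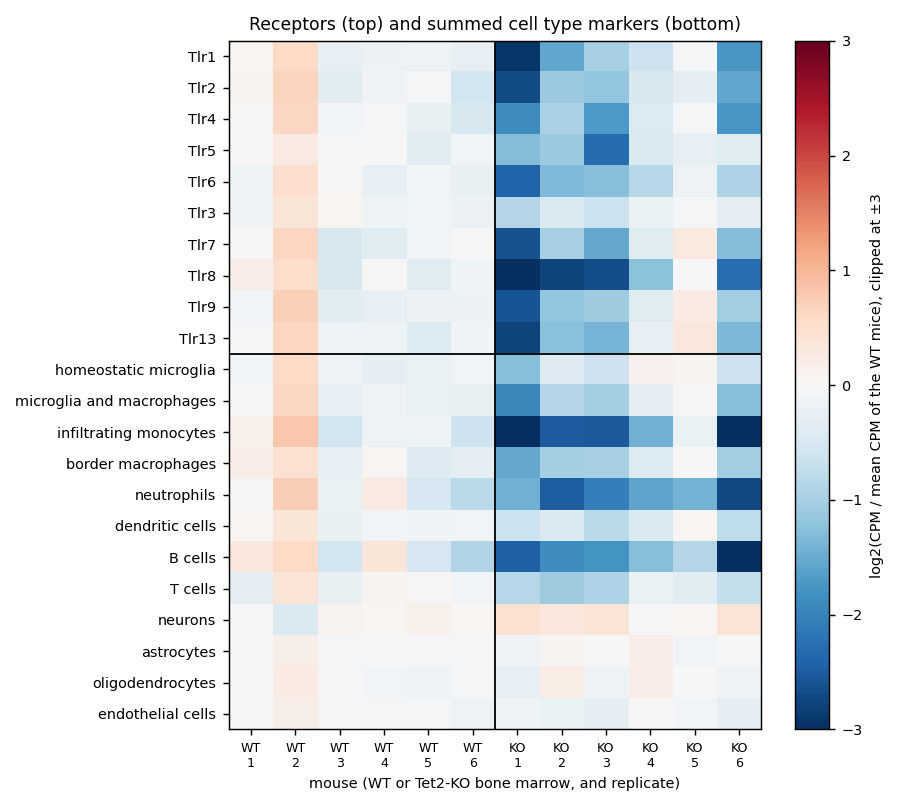
Log2 ratio of each mouse to the mean of the 6 WT mice for the 10 receptors (top) and for the summed markers of 12 cell types (bottom); colours are clipped at ±3, and the lowest value, -5.59, is Tlr8 in Tet2-KO replicate 1. WT replicate 2 and Tet2-KO replicate 5 are the highest of their groups for the receptors and for the sums of infiltrating monocyte and of microglia and macrophage markers. The infiltrating monocyte sum is mostly Lyz2.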

How the data were processed

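Per the labels' processing notes, the reads were trimmed with Trimmomatic 0.36, aligned to mm10 with STAR 2.5.2b and counted with featureCounts of Subread 1.5.2, and the authors counted only unique reads in exons after ribosomal RNA depletion. The strand setting is not given in the sources used here. The deposited values are whole-number read counts per gene without normalization. Symbols (48970 of 49315 identifiers), positions and exon lengths came from GENCODE M21, which is on GRCm38, the same assembly as mm10.

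In R 4.3.3, genes were kept with filterByExpr, scaled with TMM and tested between 6 WT and 6 Tet2-KO mice with edgeR 4.0.16 (robust quasi-likelihood fit, no covariates, Benjamini-Hochberg adjustment over all tested genes, threshold 0.05). The SE is the log2 fold change divided by the root of F. CPM values are TMM-scaled, the log2 values for correlations used a prior count of 2, and single genes were permuted with a pseudocount of 0.1 CPM. Alternatives were DESeq2 1.42.0, limma 3.58.1 with voom quality weights, other scalings and filters, a block by replicate number and each library left out. The tests were tested on simulated counts, where DESeq2 made a larger share of false calls than edgeR and limma-voom. All 3 exceeded the threshold, edgeR and limma-voom by little. The simulated counts held no library that stands apart as WT replicate 2 and Tet2-KO replicate 5 do. They therefore cannot rank the tests for these data. The receptors and the lists of pathway genes and markers were chosen with earlier results of these data known. Named are all receptors, of each pathway list the genes past the threshold in 1 of the 3 tests or otherwise the 2 with the smallest p, and the 3 genes most like each receptor; Ticam1, Sarm1, Traf6, Hsp90b1, Cnpy3, Lrrc59, Hmgb1, Cxcr2, Retnlg, Ngp, Camp, Cd163, Lyve1, Il6, Il12b and Tlr11 were added after their values were seen. The single values of 1 marker gene are not reported here.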

Additional observations from a re-analysis of the deposited data

Results flagged for a closer look

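In the WT group, replicate 2 lay far above the other 5 mice for 7 receptors, with a gap to the next mouse that passed Dixon's 95% limit for 6 values. Its levels were 19.0 CPM for Tlr1 (next 13.1), 18.2 CPM for Tlr4 (next 11.7), 5.59 CPM for Tlr6 (next 4.02), 41.4 CPM for Tlr3 (next 33.1), 46.5 CPM for Tlr7 (next 29.8), 41.0 CPM for Tlr9 (next 23.4) and 34.8 CPM for Tlr13 (next 21.7). The summed endosomal receptors of that mouse, 42.8 CPM per kb against 27.6 for the next, passed the same limit. These values come from 1 mouse and are not independent of each other. WT replicate 6 had the lowest ratio of surface to endosomal receptors of its group, 0.462 against 0.584 for the nearest mouse. Chance alone passes this limit in about 1 of 20 groups, and 26 groups were examined.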

How the results depend on the processing

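The log2 fold changes of all 10 receptors stayed below 0 under every alternative run. The number of receptors called lower was 0 with edgeR, 3 with DESeq2, 7 with limma-voom and 5 without both WT replicate 2 and Tet2-KO replicate 5 (chosen after seeing the data), and from 0 to 7 when each mouse was left out in turn, with 7 only without Tet2-KO replicate 5. Leaving out 1 mouse moved the median log2 fold change between -1.23 and -0.84 for the surface and between -1.17 and -0.61 for the endosomal receptors. Over all genes, edgeR called 5, DESeq2 1464, limma-voom 1863, edgeR with no filter on low counts 44 and with at least 10 counts in every library 0 (which drops Tlr5 and Tlr8), and leaving out 1 mouse gave 0 to 2257. Pathway genes called lower were 2 with edgeR, 14 with DESeq2, 22 with limma-voom, 17 without both mice and 0 under the strict filter. In the same order, 0.0246%, 4.81%, 6.38% and 4.94% of all tested genes were called lower, and 0 genes under the strict filter. The cause of these differences was not tested. The replicate numbers did not pair the mice (correlations of same-numbered mice from -0.19 to 0.27, 2 of 6 over 0.1, 1 of 6 highest with its own number). With a replicate block, edgeR called 0 receptors (7 at an unadjusted p below 0.05; medians -1.08 surface and -0.99 endosomal) and 0 genes in all. Depth limits Tlr5, with 5 to 28 reads per mouse, and Tlr8, with as few as 3.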
